A study of Rattus norvegicus with 6 samples.

Results

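The Or4 genes are family 4 of the rat olfactory receptors, and they were studied here in liver RNA from rats given nitrilotriacetic acid trisodium monohydrate (NTA) or vehicle. The members are all non-control probes whose RefSeq accession belongs to a rat gene with an Or4 symbol. This gave 144 genes and 225 probes out of 15278 genes and 27447 probes that could be named with 1 symbol. One of these genes, Or4m1, was selected on the same arrays described here: the number of arrays on which a probe was well above background in each group, and its signal, singled it out. Its values are therefore a description, and no test is taken as support for them or for the NTA minus vehicle difference of any Or4 member.

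The study measured total RNA of liver from male Sprague-Dawley rats, strain Crl:CD(SD), bought at 5 weeks of age, with 3 rats given NTA at 1000 mg/kg/day and 3 given vehicle. Each rat has 1 Agilent one-colour array labelled with Cy3. The labels disagree on the vehicle, which is purified water in one field and corn oil in another, and on the length of dosing, which is 28 days in the design text and 9 weeks in the treatment protocol. No genotype or transgene is involved, and the groups differ by the labels in NTA alone.

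Olfactory receptors are G protein-coupled receptors that sensory neurons of the nose use to detect odorants. Each neuron is known to express a single receptor allele, and the bound receptor acts through the G protein subunit Gnal (Golf), adenylate cyclase Adcy3 and a cyclic nucleotide-gated channel built from Cnga2, Cnga4 and Cngb1. Outside the nose, transcripts of some receptors are known from testis and other tissues, usually at low levels. The coding sequence of these receptors is usually held in 1 exon, and the receptors lie in clusters of closely related genes.

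To show the gene on which the results turn, the 300 bases around its annotated start are printed, with those of Or4f7c, a member whose probe read above the 75th percentile of every array, chosen after its values were seen. They are from RefSeq (build GRCr8), 5′ to 3′ on the strand of the gene, and run from 250 bases before the annotated start to 50 bases after it; capitals mark TAATTA, the core that many homeodomain proteins bind.

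Or4m1, chr15:25981691-25981990, minus strand: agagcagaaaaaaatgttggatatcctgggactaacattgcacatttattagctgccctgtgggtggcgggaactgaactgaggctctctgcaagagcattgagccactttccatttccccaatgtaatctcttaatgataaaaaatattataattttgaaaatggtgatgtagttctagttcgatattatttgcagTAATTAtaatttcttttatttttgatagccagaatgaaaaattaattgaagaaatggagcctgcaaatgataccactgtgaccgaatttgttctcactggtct

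Or4f7c, chr3:118914291-118914590, minus strand: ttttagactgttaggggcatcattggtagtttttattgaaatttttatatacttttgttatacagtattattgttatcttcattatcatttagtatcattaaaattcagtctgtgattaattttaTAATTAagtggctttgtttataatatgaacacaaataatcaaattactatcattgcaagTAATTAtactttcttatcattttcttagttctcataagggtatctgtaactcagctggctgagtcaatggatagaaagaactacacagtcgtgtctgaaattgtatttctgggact

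The Or4m1 window holds TAATTA once, with its first base at position -53 from the annotated start. In both windows the annotated start is the start codon, as in all 122 Or4 genes on the array that have a full window, against 10.5% of the 27457 windows of all genes. These windows therefore show the bases before the coding sequence, and a transcription start further upstream lies outside them or within them unmarked. The 6 letters TAATTA, which are their own reverse complement, stood in 24.6% of the 122 Or4 windows, in 18.7% of 1026 windows of olfactory receptors of any family and in 5.35% of the windows of all genes. These letters are only A and T, and G and C made up 35.7% of the Or4m1 window and 27.7% of the Or4f7c window. The base composition of the sets of windows was not set beside these shares, so no enrichment is read from them. A match describes letters in a window and nothing about binding.

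On each array, between 62.4% and 64.5% of 61657 non-control probes were well above background, a flag of the image software for spots that exceed the background by a set margin. Each marker gene was read by 1 probe, also where it has more. All 10 hepatocyte markers examined, among them Alb, Ttr and Apoa1, were well above background on all 6 arrays. Of 10 markers of mature olfactory sensory neurons with a probe, 5 were above background on no array, and these were Omp, Adcy3, Cnga2, Cnga4 and Stoml3. All 3 NTA arrays were on 1 slide that held no vehicle array, which means that an effect of the slide and one of NTA cannot be told apart. Vehicle array 3 was alone on its slide and in the second scan session, with a local background of 40 against 54 to 61 scanner units on the others.

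Most Or4 probes were dim. Of the 225 probes, 49 (21.8%) were well above background on at least 1 array, 27 (12.0%) on all 6, and 176 (78.2%) on none. The numbers per array were 40, 34 and 33 for vehicle and 37, 38 and 39 for NTA, so the ranges of the groups overlapped. The other olfactory receptor families were alike, with 20.7% of 1558 probes above background on at least 1 array and 9.76% on all 6. Among the other named genes, 79.4% of 25664 probes were above background on at least 1 array. Receptors were recognised by Or symbols with a family number, so the other named genes still hold receptors with Olr symbols, such as Olr1610.

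Or4c, the subfamily with the most probes, also had the most above background, 13 of 67 (19.4%) on at least 1 array, beside 21.8% of all Or4 probes. Or4k followed with 10 of 33 (30.3%), Or4f with 7 of 34 (20.6%) and Or4a with 4 of 31 (12.9%). Of the smaller subfamilies, Or4p had 2 of 16, Or4d 3 of 12, Or4x 2 of 7 and Or4b 3 of 6. Or4g had 4 of 6 probes above background, all of them on all 6 arrays. None of the 4 Or4e probes and neither probe of Or4l, Or4s and Or4z was above background on any array.

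The signal of an Or4m1 probe, A_44_P149210, was at background in every vehicle rat and above it in every NTA rat. As log2 of the processed signal relative to the 75th percentile of the array, it was -7.37, -7.21 and -7.36 in vehicle rats 1, 2 and 3. In NTA rats 1, 2 and 3 it was -1.74, -2.65 and -3.08. Every NTA value was above every vehicle value, and the NTA rats differed among themselves by up to 2.54-fold.

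The vehicle values are no measured levels. Where a spot is not significantly above background, the image software replaces its signal by its estimated error, and the processed signals of 3.13, 3.14 and 3.21 in the vehicle rats were within 1% of that error. The mean difference of 4.82 on the log2 scale, from -7.31 ± 0.09 (SD, n = 3) to -2.49 ± 0.69 (SD, n = 3), is therefore set in part by this replacement. Against the lowest signal that was well above background on each vehicle array, the NTA signal was at least 6.68-fold higher. That bound uses the mean over all 3 NTA arrays and the mean of the vehicle arrays' lowest signals.

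The raw intensities show the same order of the groups without the replacement. The median pixel intensity of the spot was 31, 27 and 32 scanner units in the vehicle rats and 162, 103 and 85 in the NTA rats. The local background around it was 50, 50 and 37 in vehicle and 51, 49 and 53 in NTA. The vehicle spots were thus darker than their surroundings, and the NTA spots brighter.

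**Figure D1:**
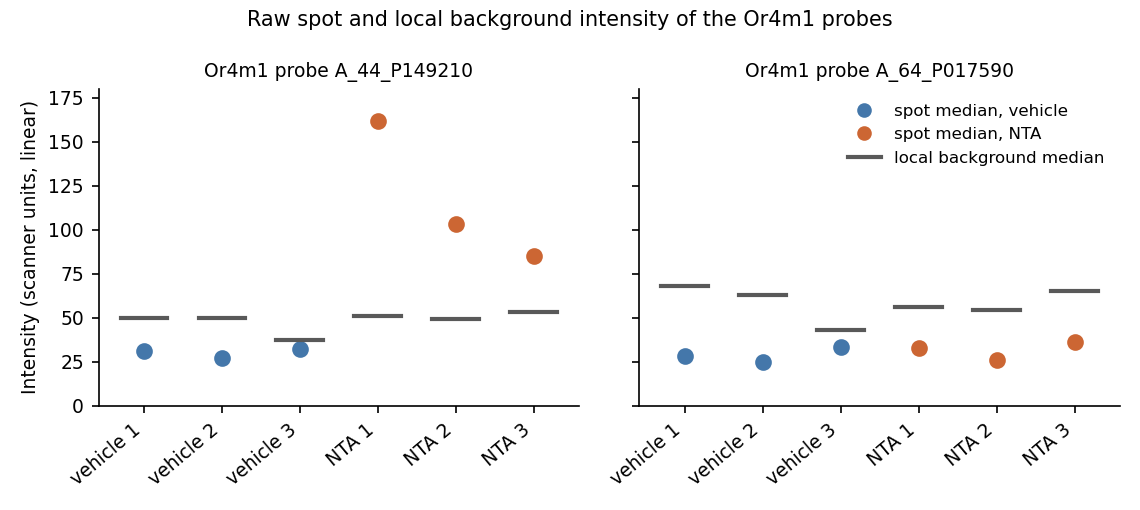
Raw spot medians (points, linear scanner units from 0) and local background medians (bars) of both Or4m1 probes on each of the 6 arrays. For A_44_P149210 the NTA spots read 162, 103 and 85 and the vehicle spots 27 to 32, while for A_64_P017590 every spot lies below its local background.

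The second Or4m1 probe, A_64_P017590, did not show this pattern. It was well above background on 0 of 6 arrays, and its values were -7.59, -7.42 and -7.42 in vehicle and -7.48, -7.65 and -7.68 in NTA. The groups overlapped, and the means were -7.48 ± 0.10 (SD, n = 3) in vehicle and -7.61 ± 0.10 (SD, n = 3) in NTA, a difference of -0.13. The spot was significantly above background by the weaker of the flags in NTA rat 1 only. Both probes are assigned to the same gene by their accession, and where in the gene each probe lies was not analysed here.

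The size of the A_44_P149210 difference depended on the background correction. With normexp correction of the raw intensities (offset 50), which sets no dim spot to its error, the means were -2.96 ± 0.15 (SD, n = 3) in vehicle and -1.95 ± 0.37 (SD, n = 3) in NTA. This is a difference of 1.02 in place of 4.82. The spot median minus the local background median, from which normexp starts, was -19, -23 and -5 scanner units in the vehicle rats. The offset of 50 therefore largely sets the vehicle level under normexp, and 1.02 is no estimate of the fold and cannot be set against the bound above. The second probe differed by 0.04 under normexp.

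**Figure D2:**
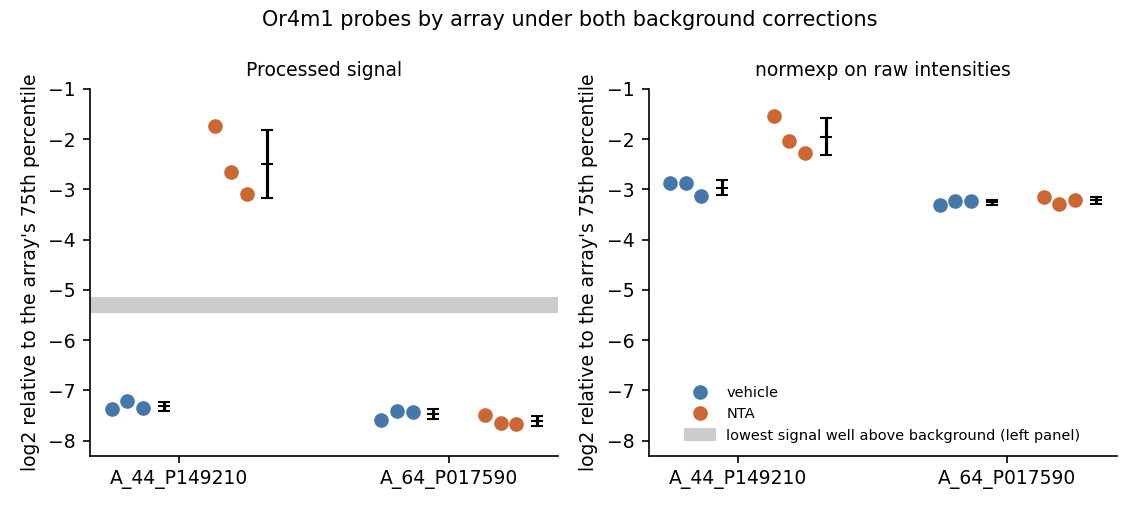
Level of both Or4m1 probes on each array (points) with the group mean ± SD (black, n = 3), as log2 relative to the 75th percentile of the array, from the processed signal (left) and after normexp (right). The grey band spans the lowest signals that were well above background, and for A_44_P149210 the gap between the groups is 4.82 on the left and 1.02 on the right.

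The spots around the probe on the array were examined. All 6 spots nearest to A_44_P149210 had NTA minus vehicle differences between -0.27 and 0.11, and 5 of these were well above background on all 6 arrays. No spot near it shared its pattern. No NTA or vehicle spot of either Or4m1 probe carried the non-uniformity flag or was saturated. Within the first scan session, which leaves out vehicle rat 3, the difference of A_44_P149210 was 4.80.

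A probe that is above background in every rat of one group and in none of the other was rare on the array. For all 3 NTA rats and no vehicle rat there were 96 such probes of 61657, or 0.156%. The Or4 family held 2 of these, A_44_P149210 and the Or4c31 probe A_64_P119513, and nothing is read from that count because Or4m1 was chosen by the flag. The reverse pattern, all vehicle rats and no NTA rat, was found for 27 probes of the array and for 0 of the 225 Or4 probes. Among the other olfactory receptor families 1 probe (Or9i16) had the first pattern and 1 (Or5ac23b) the reverse, named here after their values were seen.

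The Or4c31 probe crossed the flag by a small step. Its values were -5.36, -5.23 and -5.23 in vehicle rats and -5.05, -4.99 and -5.05 in NTA rats, a difference of 0.25. The groups did not overlap, and all 6 spots were significantly above background by the weaker flag. By normexp the difference was -0.07, in the opposite direction. The other Or4c31 probe (A_44_P440311) was above background on no array, with a difference of -0.21.

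**Figure D3:**
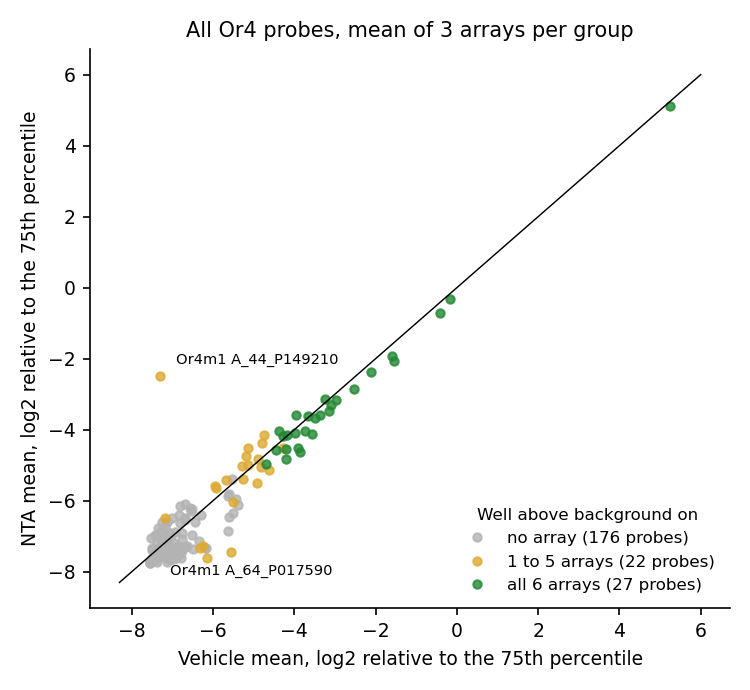
Mean level of each of the 225 Or4 probes in NTA (vertical axis) against vehicle (horizontal axis), both as log2 relative to the 75th percentile of the array, coloured by the number of arrays on which the probe was well above background; the line marks equal levels. The Or4m1 probe A_44_P149210 lies 4.82 above the line, and the other tested Or4 probes lie between -0.76 and 0.60 from it.

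The limma fit took the probes that carried the flag in all 3 rats of a group, either NTA or vehicle, which were 38168 probes of the array and 35 of the 225 Or4 probes. Because Or4m1 passed through the NTA rats alone, counts over the 35 give it no support. With Benjamini-Hochberg adjustment in limma 13 of 38168 probes (0.0341%) passed 0.05. A_44_P149210 was among them, from which nothing is read, since it was selected on these values. It was not among them in 9 of the alternatives (1 of which left it untested), including normexp, no filter on dim probes, scan day as a block and the omission of any vehicle rat, and it was among them in 8. The groups did not overlap in 13.4% of all tested probes, of which 2117 were higher and 2990 lower in NTA. The same held in 5 of the 35, of which 3 were higher and 2 lower in NTA. All 3 that were higher (Or4m1, Or4c31 and Or4p7) entered the fit through the NTA rats alone. Over the 27 Or4 probes above background on all 6 arrays, 0 were higher and 2 lower without overlap. Over all 36166 probes of the array above background on all 6 arrays, 1882 were higher and 2833 lower without overlap. Differences past 1 on the log2 scale made up 1.23% of all tested probes and 1 of the 35.

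Leaving Or4m1 aside, the tested members showed small differences. Over these 34 probes the median was -0.19, with a range of -0.76 to 0.60. The median of all tested probes was -0.03, and that of 186 tested probes of other olfactory receptor families was -0.12. In all, 11 of the 34 were higher in NTA and 23 lower, before any test, beside 16872 higher and 21296 lower of all tested probes. Some of the 34, among them Or4p7 at 0.60, passed the filter through the NTA rats alone, so nothing is read from these counts. Of the 27 above background on all 6 arrays, 6 were higher and 21 lower, beside 15664 and 20502 of all such probes of the array. By normexp the median of the 34 was -0.11 and that of all tested probes -0.05.

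Probes at background share a shift of that size. The 175 other Or4 probes that were above background on no array had a median difference of -0.18, and the 18875 probes of the whole array at background had -0.15. Of the 1350 spots of Or4 probes, 835 (61.9%) were not significantly above background, and all of these carried a signal within 1% of their error. Every spot of the 34 tested probes was significantly above background, so none of the 34 carried this replacement. The cause of their median difference was not tested.

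The 12 probes first by symbol among the 27 above background on all 6 arrays are given in full. Or4a77 (A_44_P236001) read -3.99, -3.82 and -4.70 in vehicle rats and -4.41, -3.89 and -4.19 in NTA rats. Its groups overlapped. Or4a80 (A_64_P156105) read -0.36, -0.48 and -0.43 in vehicle and -0.66, -0.81 and -0.64 in NTA. All NTA values of Or4a80 were below the vehicle values, by 0.28 in the mean on the log2 scale, and by normexp the difference was -0.21.

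Or4b1 was 1 of 3 members with at least 2 probes whose probes were all above background on at least 1 array. Its probe A_44_P297059 read -4.31, -3.81 and -4.69 in vehicle and -4.45, -4.01 and -4.06 in NTA. The other, A_64_P097496, read -3.22, -3.54 and -3.72 in vehicle and -3.52, -3.61 and -3.87 in NTA. The groups overlapped for both probes, whose differences were 0.10 and -0.17.

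In the large Or4c subfamily, Or4c1 (A_44_P156361) read -4.46, -4.05 and -4.64 in vehicle and -3.69, -4.18 and -4.19 in NTA. Or4c103 (A_44_P210317) read -4.23, -4.80 and -3.55 in vehicle and -5.20, -4.59 and -4.72 in NTA. Or4c11 (A_44_P257378) read -3.93, -3.96 and -4.08 in vehicle and -3.87, -4.29 and -4.12 in NTA. In all of these the groups overlapped, with differences of 0.36, -0.64 and -0.10 in that order.

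Or4c122 (A_44_P557253) read -4.89, -3.92 and -3.83 in vehicle and -4.47, -3.94 and -5.23 in NTA. Or4c127 (A_64_P009250) read -4.18, -4.33 and -3.39 in vehicle and -4.25, -3.08 and -3.46 in NTA. Or4c15 (A_44_P123450) read -3.34, -3.35 and -3.42 in vehicle and -3.64, -3.31 and -3.79 in NTA. Their groups overlapped too, with differences of -0.33, 0.37 and -0.21.

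Or4c35 (A_44_P482413) read -3.56, -3.21 and -3.90 in vehicle and -3.81, -4.06 and -4.46 in NTA. Or4d2 (A_44_P287977) read -4.35, -3.89 and -3.46 in vehicle and -4.86, -4.44 and -4.23 in NTA. The lowest vehicle value lay below the highest NTA value in both, so that the groups overlapped. Their mean differences were -0.55 and -0.61, and -0.24 and -0.25 by normexp.

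The flag is set spot by spot, and the mean level of a probe did not always follow it. Means here are relative to the lowest signal well above background on each array. The lowest means among probes with the flag on any array were those of Or4k44 (A_44_P365291), Or4c15b (A_64_P036217) and Or4p22d (A_44_P186931). Each of these was above background on a single array. Or4k44 read -3.84 in vehicle rat 2 and between -7.65 and -7.15 in the other rats. The highest means among probes well above background on no array were those of Or4a2 (A_44_P369919), Or4f53b (A_44_P219699) and Or4f56 (A_44_P393336). These means were above those of Or4k44, Or4c15b and Or4p22d, and Or4a2 read between -6.10 and -5.05. In all, 9 Or4 probes were above background on 1 array only.

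Probes of the same receptor gene seldom shared the flag. Of 80 Or4 genes with at least 2 probes, 3 (3.75%) had every probe above background on at least 1 array, and these were Or4b1, Or4f58 and Or4g17. In 28 genes some but not all probes were above background, and in 15 of these 1 probe was so on all 6 arrays while the others were so on none. Or4m1 belongs to the 28. Or4a80, Or4c1, Or4c11, Or4c127, Or4c15, Or4c35 and Or4d2 are among the 15.

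In the other olfactory receptor families with 582 such genes, 4.64% had every probe above background and 29.7% some. For 8141 other named genes these shares were 69.9% and 18.1%. By the naming series of the probes, 31 of 140 Or4 probes in the A_44 series and 17 of 83 in the A_64 series were above background on at least 1 array. The difference between the receptors and the other genes was not tested.

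**Figure D4:**
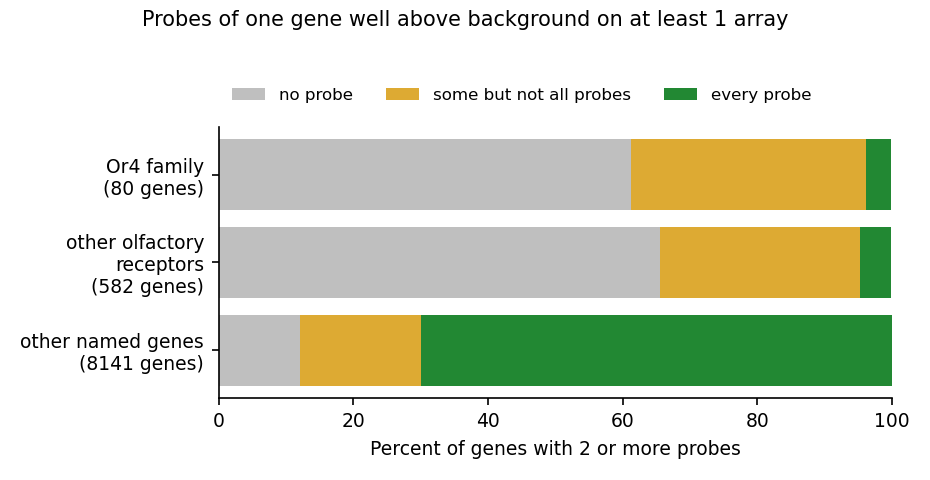
Share of genes with at least 2 probes in which no probe, some probes or every probe was well above background on at least 1 array, in percent. Every probe was above background in 3.75% of 80 Or4 genes, 4.64% of 582 other olfactory receptor genes and 69.9% of 8141 other named genes.

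The genes nearest to Or4m1 in the order of the RefSeq gene table that have a named probe did not share its pattern. Genes whose symbols start with LOC, RGD, Trna or Mir were left out of this order. On one side lie Or4k1, Or4k5, Or4k2, Or4k6, Olr1610 and Or4n4, all receptor genes, and on the other Or4q3, the Toll-like receptor gene Tlr11, Or11j4, Or11g1, Or11g24 and Or11g26b. Or4n4 and Or4q3, the nearest of the genes kept, have no named probe on the array. Of the probes of the others, only an Or4k5 probe (A_44_P463617) and the Tlr11 probe (A_64_P147368) were above background on any array, each on 5 of 6. Their NTA minus vehicle differences were -0.24 and 0.10, and the groups overlapped in both. No other gene of the table overlaps Or4m1, whose annotated length is 942 bases.

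Genes of the olfactory signalling cascade were examined as the pathway around the receptors. Each was read by 1 probe, the one with the highest mean level over the arrays, and other probes of the gene were not examined. Of 30 listed genes 28 have a probe, 16 were above background on all 6 arrays and 10 on none. In limma with Benjamini-Hochberg adjustment, 0 of the 17 tested genes passed in either direction, beside 0.0341% of all tested probes. Without adjustment 1 was past 0.05, beside 7.38% of all, and the median difference of the 17 was 0.001.

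That gene, read by 1 of its 4 probes, was Reep1, whose product helps olfactory receptors reach the cell surface. It read -1.77 ± 0.17 (SD, n = 3) in vehicle and -0.84 ± 0.24 (SD, n = 3) in NTA, a difference of 0.93 (SE 0.16; adjusted p = 0.39 in limma), and 0.77 by normexp. Next by p was Rtp2, a receptor-transporting protein, with a difference of -0.40 (adjusted p = 0.71 in limma). Others were Rtp1 at -0.57, Ric8b, a guanine nucleotide exchange factor for Golf, at -0.26, and Arrb2, an arrestin, at 0.22, with adjusted p between 0.76 and 0.80 in limma.

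Marker lists of olfactory sensory neurons, of other cells of the olfactory epithelium and of germ cells were set beside the Or4m1 values. Here too each gene was read by 1 probe. The summed level of the 10 olfactory neuron markers with a probe, as a multiple of the 75th percentile, ranged from 0.817 to 1.08 in vehicle and from 0.796 to 0.861 in NTA. Of these, Gnal, Cngb1, Gng13 and Rtp2 were above background on all 6 arrays and Rtp1 on 5, while Omp, Adcy3, Cnga2, Cnga4 and Stoml3 were so on none. Of 6 markers of support and basal cells of the olfactory epithelium, 2 were above background on all 6 arrays, and the summed level was 0.398 to 0.422 in vehicle and 0.331 to 0.445 in NTA. Of 5 germ cell markers, only the protamine gene Prm1 was above background, and the summed level was 0.123 to 0.140 in vehicle and 0.0836 to 0.103 in NTA, lower in every NTA rat. That sum rests mostly on the Prm1 probe, which differed by -0.55 (adjusted p = 0.45 in limma) and by -0.23 with normexp. Groups without overlap were found in 13.4% of all tested probes. The part of the listed cell types in the Or4m1 values was not tested. In RNA of a whole tissue, a change in the number of cells of a type and a change of RNA per cell cannot be told apart.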

How the data were processed

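The members and gene lists were chosen with earlier results of these data known. Intensities were deposited by the authors as Agilent Feature Extraction 10.7.1.1 output, per the file headers (10.7 in the submitters' processing notes), for array design 035170 with probes annotated on rn4. The authors' series table holds the ratio of the processed signal to the array's 75th percentile, which matched for 100.0% of probes within 0.2%. Flags for spots and background were deposited in the same files.

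From these, log2(processed signal) minus that of the array's 75th percentile over 61657 non-control probes was taken. The 75th percentile was 463.6 to 558.3 scanner units. Spots flagged as non-uniform were set to missing. Accessions were named through RefSeq's gene table (GRCr8). NTA and vehicle (3 arrays each) were compared in limma 3.58.1 (R 4.3.3), two-sided, with Benjamini-Hochberg adjustment, threshold 0.05, and tested on simulated data. With 6 arrays, their number limits the precision.

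Genes named follow a fixed rule: Or4m1, 12 probes of other members (the first by symbol of 27 above background on all 6 arrays), genes beside Or4m1, and signalling genes by p. It also names the unflagged members with the highest means. The flagged members with the lowest means were named beside them and are not part of the rule. Exceptions are stated. One signalling gene that the rule names is not reported here. The normexp alternative used the median spot intensity (offset 50), as the mean spot intensity was not used here. Same-numbered rats had correlations of their deviations of 0.158, -0.004 and -0.085, so the numbers do not pair them. The alternatives tried were other scaling, background correction, probe filters, probe choice, variance models, blocks, flags and leaving out each array.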

Additional observations from a re-analysis of the deposited data

How the results depend on the processing

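Over the whole array 13 probes passed the threshold. Under 10 alternatives with other scaling, filters or models 9 to 16 passed, 8 to 13 of them shared with the 13, and with the replicate block 0 passed. The number of Or4 probes past it, 1 in the fit as described, was 0 with normexp, 0 without the filter on dim probes, 0 with the filter on all 6 arrays (where Or4m1 was not tested), 0 with the replicate block and 0 with scan day as a block. Leaving out 1 array gave 6 to 14 probes over the whole array, 6 to 9 of them shared, with 6 without NTA rat 1, and 0 to 1 Or4 probes, with 0 without vehicle rat 1, 2 or 3 or NTA rat 2. The difference of A_44_P149210 was 1.02 with normexp and 4.45 to 5.12 when 1 array was left out. The second Or4m1 probe, not above background anywhere, differed by -0.19 to -0.09 when 1 array was left out and by 0.04 with quantile normalization and with normexp. The median of the other tested Or4 probes was -0.21 to -0.14 when 1 array was left out and below 0 under every alternative run. By the weaker flag 143 of 225 Or4 probes and 988 of 1558 of the other families passed on at least 1 array; leaving out 1 array gave 45 to 48 and 301 to 315. No signalling gene passed under any alternative run. Dim signals limit all of this: most Or4 spots are at background.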

Other observations

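The Or4 probes given here were chosen after their values were seen. The Or4f7c probe A_44_P200960 read 5.28, 5.11 and 5.34 in vehicle rats and 5.11, 5.07 and 5.16 in NTA rats, as log2 relative to the 75th percentile of the array. The groups overlapped, and the gene has no other probe with which to compare it.

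The Or4d6 probe A_64_P008477 read -0.12, -0.26 and -0.13 in vehicle and -0.42, -0.24 and -0.29 in NTA, with overlapping groups, while the other probe of that gene (A_44_P374754) was above background on no array. The Or4k48b probe A_64_P098415 read -1.35, -1.69 and -1.56 in vehicle and -1.85, -2.03 and -2.34 in NTA. All its NTA values were lower, with a difference of -0.54 and of -0.35 by normexp, and the other Or4k48b probe (A_44_P330282) was above background on no array.

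The Or4p7 probe A_64_P119154 read -4.67, -4.63 and -4.96 in vehicle and -4.09, -3.96 and -4.40 in NTA, a difference of 0.60 with groups that did not overlap, and of 0.10 by normexp. It was well above background on 2 of 3 vehicle arrays and on all 3 NTA arrays, so it entered the fit through the NTA rats alone. The other Or4p7 probe (A_44_P198644) was above background on no array, with a difference of -0.12.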
